A study of Mus musculus with 12 samples.

Results

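The comparison described here is diesel exhaust against filtered air in mouse hearts that had a sham operation, and it takes 6 of the 12 libraries of the study by their labels, 3 per exposure. The mice were exposed in utero, from embryonic day 0.5 until late gestation, to filtered air or to diesel exhaust, and all offspring were raised in filtered air. Every animal had an echocardiogram at 11 weeks, an operation at 12 weeks and its heart taken at 15 weeks, so that the adult tissue was read long after the exposure had ended. The other 6 hearts had transverse aortic constriction (TAC), a narrowing of the aorta set with a 27 gauge needle that loads the left ventricle with pressure, and they enter here only to estimate the spread and for a comparison near the end. Of strain, genotype, sex, litter and sequencing run, the sources used here say nothing. In their transcripts all 6 sham hearts had the pattern of male tissue. Uty, of the Y chromosome, had 77 to 267 counts per library, and Xist, of the X chromosome, had 0 to 18. Hearts of 1 group may share a litter, and the p-values measure only the spread between these samples.

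Diesel exhaust carries polycyclic aromatic hydrocarbons, which bind the aryl hydrocarbon receptor, a transcription factor that induces detoxifying cytochromes P450 and its own inhibitors. Its particles also provoke oxidative stress, which acts on the transcription factor NRF2. Exposures before birth can be carried into adult life through DNA methylation and other chromatin marks, and imprinted genes are a class whose expression rests on such marks. In the heart, stress returns fetal genes such as those of the natriuretic peptides to use, which makes them a common readout of whether an unloaded heart differs from its controls.

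Markers of ventricular heart muscle were abundant. The summed level of 17 genes of ventricular cardiomyocytes lay between 126500 and 171900 CPM (counts relative to the library total, with trimmed-mean normalisation factors) in the 6 sham libraries. That of 19 atrial genes was 577 to 773 CPM, of which Clu alone gave 308 to 499, with Bmp10 at 0 counts. The sum of 10 lung genes was 154 to 178 CPM, nearly all of it Hopx, which heart muscle also expresses, with Sftpc, the defining surfactant gene, at 0. Total counts ran from 5534685 to 10403385 per library. Air library 1 had the highest total and yet the fewest genes with a count, 15224 against 16055 to 16668 in the other sham libraries. Mitochondrially encoded RNA took 30.7% ± 1.5 (SD, n = 3) of the counts after filtered air and 25.2% ± 6.6 after diesel exhaust, which an exact permutation test over libraries did not separate (two-sided p = 0.3, where 0.1 is the smallest that 3 against 3 can give).

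Diesel library 2 stood apart. It had the lowest depth, 18.3% mitochondrial RNA against 25.7% to 32.4% in the other 5, and 8.39% of its counts on genes without a symbol against 3.5% to 3.89%. Of the genes without a symbol, 1 gene number, 100861531, took 7.01% of the counts there and 2.82% to 3.11% in the other 5. Diesel library 2 also held liver transcripts. Alb, which encodes serum albumin, had 432 counts there and 0 to 3 in each of the other sham libraries, and Apob, the protein of liver lipoproteins, had 97 against 0 or 1. Over 21 liver genes, a list chosen after these values were seen, the summed level was 244 CPM in that library and 33.6 to 42.1 in the other 5, and all 20 tested members were at their highest there. In the TAC libraries the same sum ran from 44.1 to 972 CPM. The median log2 difference of the tested liver genes, diesel exhaust over filtered air, was 5.11 in sham hearts, or 0 without diesel library 2. In TAC hearts it was 3.33. The part of these transcripts in any result was not tested, and for named genes with an unadjusted p under 0.05 a value is given below without the library whose omission took that p above 0.05.

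**Figure D1:**
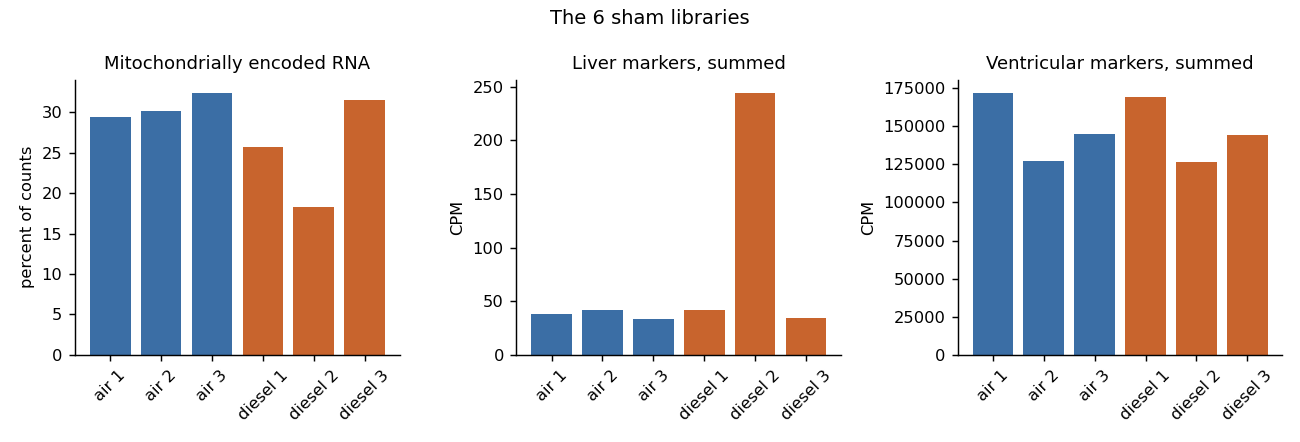
Share of mitochondrially encoded RNA (percent of counts), summed liver markers (CPM) and summed ventricular markers (CPM) in each of the 6 sham libraries, blue for filtered air and orange for diesel exhaust. Diesel library 2 has the lowest mitochondrial share, 18.3%, and the highest liver sum, 244 CPM, while its ventricular sum of 126500 CPM lies close to the 127400 CPM of air library 2.

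No gene differed between diesel exhaust and filtered air in sham hearts past the threshold. Of 13626 genes tested with edgeR's quasi-likelihood test, 0 had a Benjamini-Hochberg adjusted p under 0.05 (0% called), and the smallest adjusted p was 0.996. At an unadjusted p under 0.05 there were 503 genes, 3.69% of those tested, 261 higher (1.92%) and 242 lower (1.78%) after diesel exhaust. DESeq2 also called 0 and gave 543 genes at an unadjusted p under 0.05, and limma voom called 0 and gave 412. The unadjusted count was 820 without air library 2 and 850 without diesel library 3, 383 without diesel library 2 (167 higher and 216 lower), and 296 when only the 6 sham libraries were fitted. Scaling by total counts alone moved the median of all genes from 0.01 to 0.10 on the log2 scale and the split to 452 higher and 133 lower. The levels of all 3 diesel libraries lay on 1 side of all 3 air libraries for 1036 genes, 7.6% of those tested, 545 higher (4%) and 491 lower (3.6%).

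The precision of this null result depended on the level of the gene. The 95% interval of the fold change lay within 2-fold in either direction for 8166 genes, 59.9% of those tested. Among the 7564 genes that average 10 CPM or more it did so for 6825, or 90.2%. The median standard error (SE) of a log2 fold change was 0.30 over all genes and 0.22 at 10 CPM or more. For most genes at 10 CPM or more a change of 2-fold thus lay outside the interval. For many scarcer transcripts the interval reached beyond 2-fold, so such a change was not excluded.

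**Figure D2:**
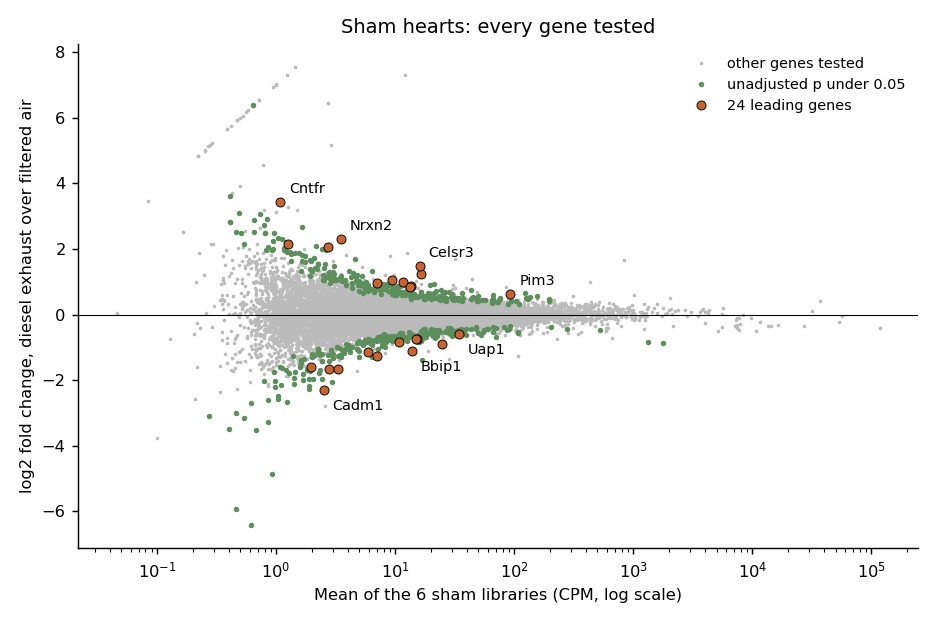
Log2 fold change of diesel exhaust over filtered air against the mean of the 6 sham libraries (CPM, log scale), with 1 point per gene tested. The 503 genes with an unadjusted p under 0.05 are green, or orange for the 24 leading genes, and none passed the adjusted threshold. All 29 genes above 4 had their highest sham level in diesel library 2.

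The genes that came nearest to a difference are described next as values. They are the 12 higher and 12 lower genes with the smallest unadjusted p among those that reach 1 CPM on average and whose groups do not overlap, so their lack of overlap and their p, between 5.25e-04 and 0.00435, come from the choice. Each had an adjusted p of 0.996 or more.

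Among the 12 higher genes, some act in signalling and metabolism. Pim3, a serine/threonine kinase and the most abundant of them, stood at 67.3, 69.7 and 82.7 CPM after filtered air and 120, 117 and 101 after diesel exhaust (log2 0.62 ± 0.18 SE, unadjusted p = 0.0022). Echdc3, which encodes a mitochondrial protein of the enoyl-CoA hydratase family, was at 9.84, 9.1 and 9.73 CPM against 16.1, 18.2 and 18.5 (log2 0.88 ± 0.24). The gap between the groups was wider than the range within either. Plcg2, a phospholipase C of immune cells, was at 11.6, 8.22 and 8.6 CPM against 12.5, 21.2 and 17.8 (log2 0.84 ± 0.26).

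Other genes of the higher set encode cell surface proteins. Nrxn2, a neurexin of synaptic adhesion (gene number 18190, chromosome 19, 6418756 to 6533217 in GRCm38), was at 0.953, 2.06 and 0.487 CPM after filtered air and 8.17, 7.19 and 2.16 after diesel exhaust (log2 2.31 ± 0.61, unadjusted p = 9.83e-04). Celsr3, an atypical cadherin of neurons, was at 6.46, 9.54 and 9.41 CPM against 11, 40 and 19.8 (log2 1.48 ± 0.39, and 0.86 without diesel library 2). Ms4a7, a membrane protein of macrophages, had 4, 2 and 4 counts against 6, 15 and 20. Cntfr, the receptor of ciliary neurotrophic factor, had 3, 1 and 0 counts after filtered air and 12, 21 and 7 after diesel exhaust, so its fold is not given. A further 4 were Nt5dc2, Fam131a, BC029722 and 2810410L24Rik, a long noncoding RNA, with levels in diesel hearts 1.97-fold (BC029722) to 4.21-fold (2810410L24Rik) those of air hearts.

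The 12 lower genes were led by Bbip1, a subunit of the BBSome, a complex of ciliary transport (gene number 100503572, chromosome 19, 53929656 to 53944627 in GRCm38). It stood at 21.1, 16.4 and 19.5 CPM after filtered air and 11.4, 6.02 and 8.95 after diesel exhaust, the smallest p of all genes tested (log2 -1.10 ± 0.27, unadjusted p = 5.25e-04). A pair of adhesion genes followed it. Cadm1, an adhesion molecule of the immunoglobulin family, was at 6.88, 2.35 and 3.25 CPM against 0.383, 1.17 and 1.01 (log2 -2.30 ± 0.61). Pcdh1, a protocadherin, was at 41.8, 29.1 and 25 CPM against 20.3, 17.1 and 14 (log2 -0.90 ± 0.24). In both the highest air value was that of library 1, and the groups did not meet.

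Several of the lower genes make RNA and protein or sugar precursors. Rpp30, a subunit of ribonuclease P, was at 13.3, 7.05 and 9.41 CPM against 4.08, 2.84 and 5.34 (log2 -1.28 ± 0.35), and Pno1, an assembly factor of the small ribosomal subunit, was at 22.2, 17.3 and 18 against 10.6, 9.53 and 14.4 (log2 -0.74 ± 0.23). Uap1, which makes the UDP-N-acetylglucosamine used in glycosylation, had the highest level of the 12 at 43.9, 41.4 and 38.5 CPM against 25, 29.4 and 27.1 (log2 -0.60 ± 0.19). F8, which encodes coagulation factor VIII, was at 7.73, 2.94 and 4.54 CPM against 2.04, 0.836 and 1.88. The others were Pamr1, Ttyh2, Irgm2, an interferon-inducible GTPase, the pseudogene Gm6929, whose reads may be shared with related copies, and Tiparp.

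**Figure D3:**
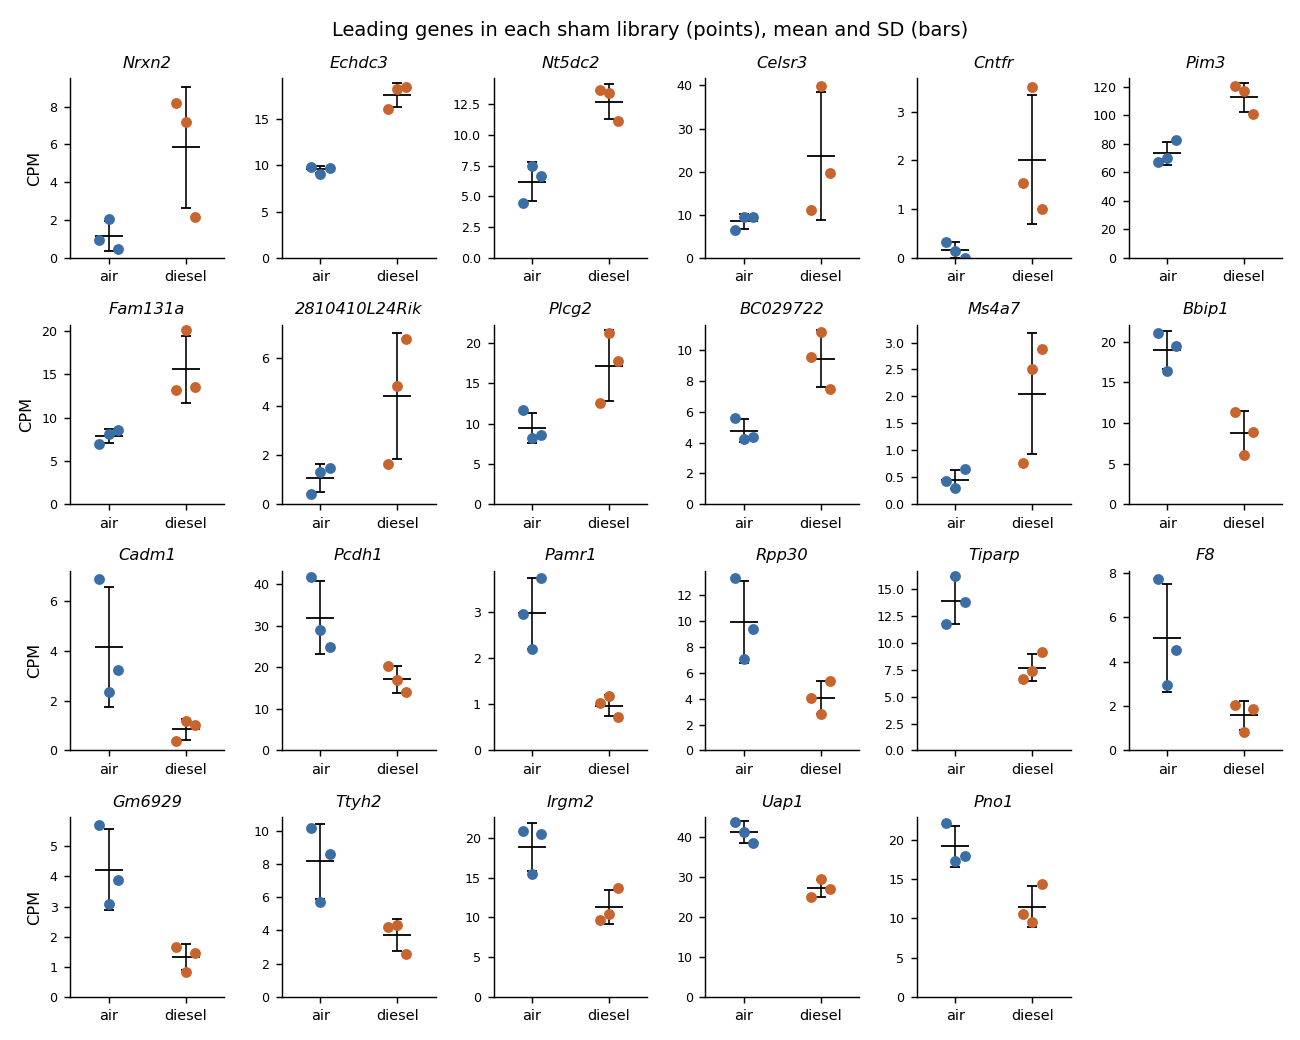
Level (CPM, axes from 0) of 23 of the 24 leading genes in each sham library, blue for filtered air and orange for diesel exhaust, with bars for the mean and SD of 3 libraries. The groups do not overlap in any panel because the genes were chosen so; Celsr3 has its highest value in diesel library 2.

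Tiparp is a target of the aryl hydrocarbon receptor that encodes a poly-ADP-ribosyltransferase and limits the receptor's activity. It stood at 11.8, 16.1 and 13.8 CPM after filtered air and 6.64, 7.35 and 9.09 after diesel exhaust (log2 -0.85 ± 0.25, unadjusted p = 0.00238, adjusted p = 0.996). The value was -0.82 without diesel library 2. Cyp1a1, the cytochrome P450 that is the usual readout of the receptor, was too scarce to test: it had 18, 4 and 2 counts after filtered air and 0, 1 and 1 after diesel exhaust, and 18 of the 24 air counts came from 1 heart. Both of these target genes were lower in every diesel library, and neither difference was past the threshold.

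The 250 bases before the start of these genes are shown from RefSeq (GRCm38.p6), since both genes are textbook targets, with the core of the receptor's response element, GCGTG on either strand (CACGC when read on the other), in capitals. The window of Tiparp lies at chr3:65528197-65528446 and that of Cyp1a1 at chr9:57697363-57697612, with both genes on the plus strand.
Tiparp: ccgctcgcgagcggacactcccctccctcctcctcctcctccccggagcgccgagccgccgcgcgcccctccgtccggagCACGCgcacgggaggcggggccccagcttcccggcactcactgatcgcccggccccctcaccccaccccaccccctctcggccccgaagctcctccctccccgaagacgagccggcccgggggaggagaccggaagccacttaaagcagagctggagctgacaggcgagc
Cyp1a1: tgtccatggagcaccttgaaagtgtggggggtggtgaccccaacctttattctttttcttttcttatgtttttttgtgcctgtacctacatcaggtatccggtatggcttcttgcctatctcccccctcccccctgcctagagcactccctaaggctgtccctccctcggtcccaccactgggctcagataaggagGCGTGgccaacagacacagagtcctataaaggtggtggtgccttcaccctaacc
Each window held 1 match, beginning 170 bases before the start in Tiparp and 54 in Cyp1a1. A match occurred in 28.2% of the 32851 promoter windows of this length, so it is a description of these letters and not of binding.

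Other genes of the receptor's pathway showed no common direction. Of 28 listed genes of the receptor and of xenobiotic metabolism, 23 were tested and Tiparp alone had an unadjusted p under 0.05. The groups did not overlap for 2 higher members and for 1 lower, Tiparp, where 4% and 3.6% of all genes tested did so. Of the 23, 12 lay above 0 and 11 below, with a median log2 difference of 0.01 against 0.01 over all genes. Cyp1b1, another P450 target, was at 6.77, 4.99 and 2.76 CPM against 3.32, 11 and 4.33 (log2 0.32 ± 0.39), and its sign turned to -0.37 without diesel library 2. Ahr, the receptor, was at 8.89, 6.75 and 6.98 CPM against 4.21, 10.5 and 7.79, and Ahrr, its repressor, had 22, 25 and 23 counts against 29, 4 and 44. Nqo1, a quinone reductase shared with the NRF2 pathway, was at 41.7, 53.1 and 45.1 CPM against 47.5, 38.6 and 43.9. In these 4 genes the diesel values spanned or overlapped the air values.

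Genes of oxidative stress were evenly divided in direction. Of 40 tested members of the NRF2 and oxidative stress list, 20 lay above 0 and 20 below, with 1 higher and 1 lower at an unadjusted p under 0.05. Nox4, an NADPH oxidase that makes hydrogen peroxide, had 16, 3 and 10 counts after filtered air and 1, 1 and 0 after diesel exhaust (unadjusted p = 0.00583). Its level was under 2 CPM in every sham library, and all 3 diesel counts were below 3. Gstp1, a glutathione transferase, was at 22.4, 28.5 and 13.6 CPM against 26.7, 49.3 and 28 (log2 0.68 ± 0.27, and 0.34 without diesel library 2). Hmox1, heme oxygenase, was at 6.88, 12.6 and 4.87 CPM against 4.98, 9.86 and 8.22, with full overlap.

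The DNA methyltransferases and other chromatin enzymes did not differ past the threshold. Dnmt1, the maintenance enzyme, was at 38.5, 20.6 and 22.7 CPM against 29, 29.2 and 20.2 (log2 -0.07 ± 0.24). Dnmt3a, a de novo enzyme, was at 69.4, 50.4 and 48.7 CPM against 84.6, 53 and 56.4 (log2 0.20 ± 0.20), and Dnmt3b stood near 1 CPM in most libraries. Of 46 tested members of the list 1 was lower at an unadjusted p under 0.05, Kdm6a, an X-linked histone demethylase, at 28.4, 17.9 and 26.1 CPM against 17.9, 14.9 and 15.6 (log2 -0.58 ± 0.22, and -0.44 with unadjusted p = 0.0818 without air library 1).

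More imprinted genes lay below 0 than above it. Of 22 tested members, 16 lay below 0, where 48.9% of all genes did, with a median log2 difference of -0.13, and -0.15 without diesel library 2, while 1 had an unadjusted p under 0.05. That gene was Plagl1, a zinc finger regulator of growth, at 5.19, 2.5 and 5.35 CPM against 2.04, 0.501 and 2.6 (log2 -1.32 ± 0.60, and -0.91 with unadjusted p = 0.144 without diesel library 2). Peg3, expressed from the paternal allele, was at 9.74, 7.93 and 13.3 CPM against 7.4, 7.52 and 6.64 (log2 -0.52 ± 0.29, unadjusted p = 0.0834). Plagl1 overlapped between groups at 1 air library, and Peg3 did not overlap.

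Markers of cardiac stress did not differ past the threshold. Nppa, atrial natriuretic peptide, was at 56.8, 105 and 46.4 CPM after filtered air and 46.9, 83.7 and 42.7 after diesel exhaust (log2 -0.27 ± 0.46), and Nppb, its B-type relative, was at 90.7, 68.9 and 87.6 against 72.8, 130 and 75.9 (log2 0.17 ± 0.26). In each group 1 heart stood well above the other 2 for Nppa. Myh6, the adult myosin heavy chain, differed by log2 0.10 ± 0.23 and Myh7, the fetal one, by 0.05 ± 0.28. Acta1, skeletal alpha-actin, was at 349, 108 and 85.3 CPM against 281, 234 and 189 (log2 0.38 ± 0.48), where air library 1 held the highest value of all 6. Of 21 tested genes of the fetal program, 1 had an unadjusted p under 0.05, Mybpc2, a myosin-binding protein, at 17.2, 14.2 and 13.1 CPM against 29, 19.2 and 15.3 (log2 0.51 ± 0.23, and 0.21 without diesel library 1).

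Contractile genes lay close to 0. The 28 contractile and calcium handling genes had log2 differences between -0.25 and 0.33 and a median of 0.02, with 0 at an unadjusted p under 0.05. Atp2a2, the calcium pump of the sarcoplasmic reticulum, differed by -0.02 ± 0.23. Among 30 ion channel genes, 2 were higher and 1 lower at an unadjusted p under 0.05. The lower one was Cacna1h, a T-type calcium channel, at 10.6, 3.82 and 5.03 CPM against 3.96, 2.51 and 3.03 (log2 -1.04 ± 0.46, and -0.46 with unadjusted p = 0.351 without air library 1). Nkx2-5, a cardiac transcription factor, was at 25.4, 27.5 and 19.6 CPM against 23.1, 63.2 and 24.7. Its log2 difference of 0.61 rested on diesel library 2 and was -0.02 without it.

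Matrix genes lay on both sides of 0. Of 55 tested, 33 lay above 0 with a median of 0.05, which was -0.12 without diesel library 2. Tnxb, tenascin X, was the 1 member with an unadjusted p under 0.05, at 193, 159 and 136 CPM against 224, 279 and 181 (log2 0.49 ± 0.19, and 0.32 with unadjusted p = 0.119 without diesel library 2). Postn, periostin, differed by -0.27 ± 0.31 and Col1a1, a collagen I chain, by 0.13 ± 0.26, the latter turning to -0.26 without diesel library 2. Among 55 tested genes of adhesion and junctions the median was 0.00, with Nrxn2 and Vcam1 higher and 0 lower at an unadjusted p under 0.05. That list did not hold Cadm1 and Pcdh1, the lower adhesion genes described above, nor Celsr3, which was higher. Vcam1, an endothelial adhesion molecule, was at 11.1, 12.3 and 10.9 CPM against 13.7, 19.7 and 14.3 (log2 0.47 ± 0.23). Without diesel library 2 its log2 difference was 0.29 (unadjusted p = 0.229).

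In energy metabolism the mitochondrially encoded genes had 1 direction. All 13 mitochondrially encoded protein genes lay below 0 after diesel exhaust, with a median log2 difference of -0.35. ATP8, a subunit of ATP synthase, was the 1 member with an unadjusted p under 0.05 (log2 -0.82 ± 0.36), and it was at -0.30 without air library 3 (unadjusted p = 0.304). Diesel library 2 was the lowest of the 6 for 11 of the 13, and without it 12 lay below 0 with a median of -0.18. Their summed level was 154200, 146800 and 188200 CPM after filtered air and 129600, 95140 and 170100 after diesel exhaust, so the groups overlapped (exact permutation p = 0.3, two-sided). These genes are transcribed together as long polycistronic RNAs and are not independent of each other.

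Nuclear genes of the same complexes had no common direction. Of 49 tested, 21 lay above 0 and 28 below with a median of -0.02, and 2 were lower at an unadjusted p under 0.05. Cycs, cytochrome c, was at 79, 74.6 and 79.5 CPM against 60.9, 39.5 and 61.5 (log2 -0.52 ± 0.19, and -0.34 without diesel library 2). Ndufa4, a subunit of cytochrome oxidase, was at 610, 553 and 659 CPM against 546, 302 and 480 (log2 -0.46, and -0.24 with unadjusted p = 0.26 without diesel library 2). The median was -0.03 for 39 genes of fatty acid use and 0.08 for 30 of glycolysis, with 1 and 0 members at an unadjusted p under 0.05.

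**Figure D4:**
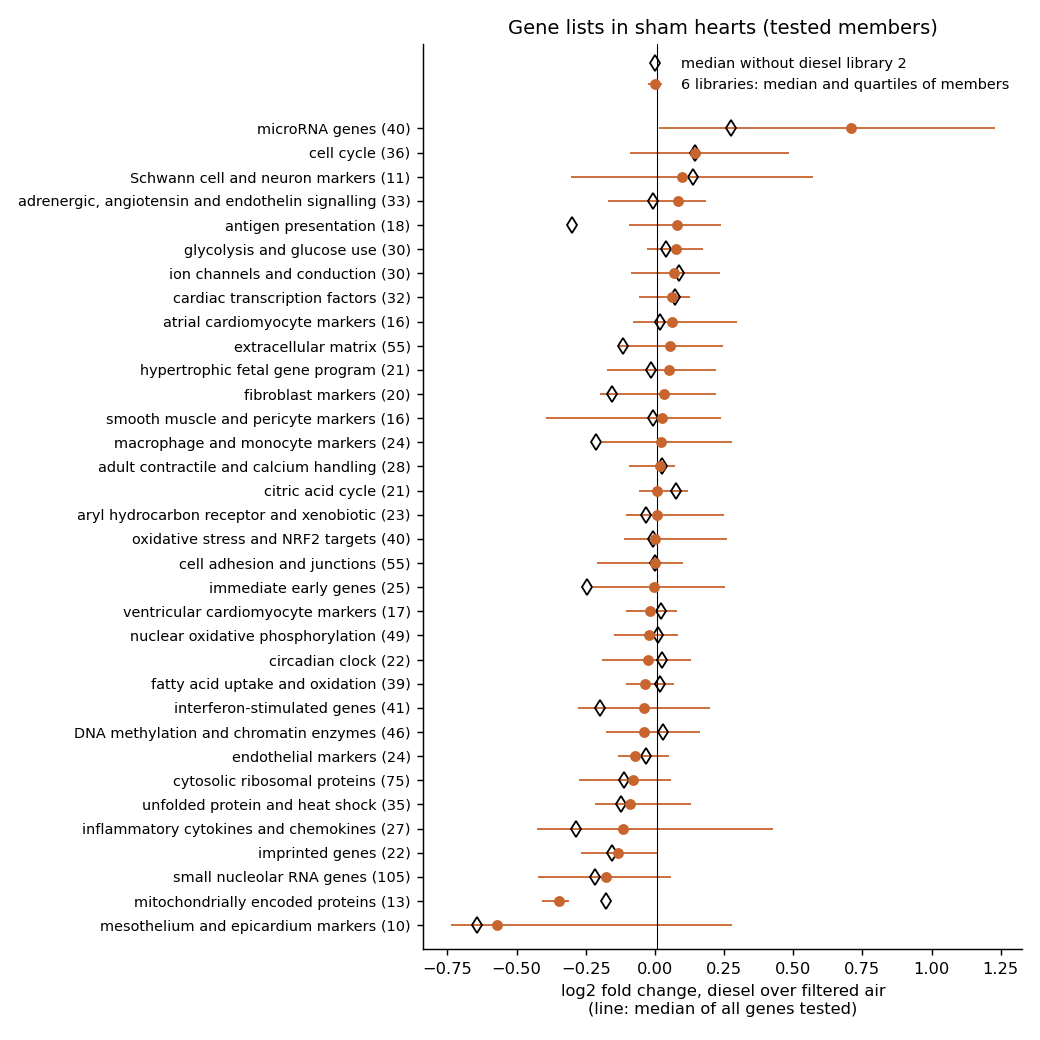
Median log2 fold change (orange points, bars for the quartiles of the members) of each list with at least 10 tested genes, with its number of tested genes, and the median without diesel library 2 (open diamonds). The microRNA genes, median 0.71, and the mitochondrially encoded proteins, median -0.35, move toward the line without that library, to 0.28 and -0.18, while the 10 mesothelium markers stand at -0.57 and -0.64, and at 0.43 without air library 2, which is not drawn.

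The median of the interferon-stimulated genes depended on diesel library 2. It was -0.04 with that library and -0.20 without it, where 11 lay above 0 and 30 below. With all libraries, of 41 tested interferon-stimulated genes, 18 lay above 0, with 1 higher and 2 lower at an unadjusted p under 0.05. Ddx58, the RNA sensor RIG-I, was at 7.2, 10.1 and 9.73 CPM against 12.4, 15.2 and 13.3 (log2 0.60 ± 0.25, and 0.46 with unadjusted p = 0.105 without air library 1), whereas Irgm2 was at 20.9, 15.4 and 20.4 against 9.7, 10.4 and 13.7 (log2 -0.75 ± 0.23). B2m, the light chain of class I antigen-presenting molecules, was at 74.5, 102 and 129 CPM against 72, 70.4 and 78 (log2 -0.47 ± 0.21, and -0.26 without air library 3). Ddx58, the 1 higher interferon gene, and Irgm2, 1 of the 2 lower, thus stood in opposite directions. The summed level of 24 macrophage genes was 327, 442 and 436 CPM against 355, 603 and 365, highest in diesel library 2, and that of 24 endothelial genes 1667, 1719 and 1617 against 1669, 1579 and 1550. In bulk tissue, fewer cells of a type and less RNA per cell cannot be told apart. Among fibroblast markers, Fap, a surface protease, was lower (1.8, 2.06 and 3.41 CPM against 1.02, 0.334 and 1.15), with an unadjusted p of 0.0706 without air library 3. The median of that list was 0.03, and -0.15 without diesel library 2, where 7 lay above 0 and 13 below. Mesothelium and epicardium markers had the lowest median of the lists plotted, -0.57 over 10 tested genes, but it turned to 0.43 without air library 2. Of the 10, 1 was higher and 1 lower at an unadjusted p under 0.05. Msln, mesothelin, was at 1.06, 6.31 and 2.43 CPM against 0.766, 0.836 and 0.866 (log2 -1.96, and -1.03 without air library 2), and Aldh1a2, which makes retinoic acid, at 0.847, 2.35 and 1.3 against 2.43, 5.01 and 2.89 (log2 1.21, and 0.85 without diesel library 2). The abundant gene of that list, complement C3, which hepatocytes also make, was highest in diesel library 2 (81.5, 177 and 128 CPM against 118, 296 and 129).

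Counts on microRNA genes in these total RNA libraries can include precursor and host transcripts. Of 643 such genes 40 passed the filter on low counts, 30 of them above 0, with 4 higher and 1 lower at an unadjusted p under 0.05. Of the 40, 16 were at their highest in diesel library 2, against 23.9% of all genes, and the median log2 difference was 0.71 with and 0.28 without that library, and 1.25 without air library 2. Mir208b, a miRNA of the heart, was higher with and without it. Its mature sequence is shown beside those of the other higher genes described here and of relatives that share a seed (bases 2 to 8, in capitals), from RefSeq (GRCm38.p6).
miR-208b-3p: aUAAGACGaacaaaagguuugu
miR-208a-3p: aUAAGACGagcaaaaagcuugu
miR-30e-5p: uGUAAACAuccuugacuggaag
miR-30c-5p: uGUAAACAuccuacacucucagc
miR-23a-3p: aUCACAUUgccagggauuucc
Mir208b, at chr14:54975700-54975776 in GRCm38.p6 within Myh7, was at 2.65, 2.94 and 4.06 CPM after filtered air and 7.66, 6.02 and 8.08 after diesel exhaust (log2 1.18 ± 0.50, unadjusted p = 0.0277, and 1.30 without diesel library 2). Without diesel library 3 its unadjusted p was 0.0707. Its host Myh7 was at 1172, 880 and 828 CPM against 1185, 973 and 825. Mir208a, which has the same seed and lies in Myh6, had 19, 21 and 12 counts against 31, 10 and 9. Mir23a was at 0.212, 1.61 and 0.649 CPM against 1.15, 7.19 and 2.16 (log2 2.09 ± 0.84) and Mir30e at 0.847, 2.2 and 0.811 against 1.15, 7.86 and 2.45 (log2 1.55 ± 0.69). Without diesel library 2 their log2 differences were 1.03 and 0.48. The lower gene, Mir143, rested on 90 counts in air library 1 against 3 to 11 in the other 5, and its difference was -0.02 without that library.

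The exposure difference was then set beside that of the 6 TAC hearts, which share no sample with it. There 0 of 13626 genes were past the adjusted threshold and 255 (1.87%) had an unadjusted p under 0.05. For the interaction, the test of whether the exposure difference of TAC hearts differed from that of sham hearts, 0 passed and 327 (2.4%) had an unadjusted p under 0.05. DESeq2 called 1 gene in each, Ptprf, and without the filter on low counts edgeR called Serpina1c in TAC hearts and Capn11 for the interaction. The tested liver genes had a median log2 difference of 3.33 in TAC hearts, and the part of liver transcripts in these calls was not tested. Of the 503 genes of the sham comparison, 52.5% had the same sign in TAC hearts, against 52% of all genes. Across genes, which are not independent replicates, the log2 differences had a Pearson r of 0.25 and a Spearman rho of 0.05. Pearson r was 0.16 for genes at 10 CPM or more.

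Of the 24 leading genes, 12 had the same sign in TAC hearts. Pamr1, a regeneration-associated protease of muscle, was at 2.96, 2.2 and 3.73 CPM after filtered air and 1.02, 1.17 and 0.721 after diesel exhaust in sham hearts, and at 5.83, 13.3 and 6.93 against 17.4, 17.2 and 15.5 in TAC hearts. It was lower with diesel exhaust in the former and higher in the latter, and its interaction of log2 2.54 ± 0.54 had an adjusted p of 0.739. Pim3 was at 58.6, 40.1 and 48.3 CPM against 44.7, 35.4 and 32.9 in TAC hearts, the opposite sign to sham, with an interaction of -1.0 ± 0.25 (unadjusted p = 7.31e-04, adjusted p = 1). The sham values chose these genes, so the interaction is not independent of the choice. Tiparp overlapped between exposures in TAC hearts, at 17, 14.3 and 15.1 CPM against 17.1, 14.1 and 13.7.

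Of the 13626 genes tested, 7 with the same sign and 10 with opposite signs had an unadjusted p under 0.05 in both surgeries. Sham hearts alone gave such a p for 3.69% of genes and TAC hearts alone for 1.87%. Same-sign genes included C4b, a complement component, at 10.2, 16 and 15.1 CPM against 20.3, 40.1 and 16 in sham hearts and 44.4, 45.4 and 22 against 70.7, 58.1 and 61.9 in TAC hearts. Its log2 difference in sham hearts was 0.89, and 0.41 without diesel library 2. Another was Plcg2, which was at 19.6, 17.7 and 12.4 CPM against 23.9, 25.1 and 31 in TAC hearts. Cyp2c29 was also among the 7, with 0, 0 and 0 counts against 0, 23 and 0 in sham hearts. Its sham difference thus rested on diesel library 2, the library with liver transcripts. Ptprf, a receptor tyrosine phosphatase, was lower in sham hearts (8.05, 7.34 and 7.3 CPM against 3.19, 5.52 and 4.76, unadjusted p = 0.118 without diesel library 1) and higher in TAC hearts (3.57, 4.64 and 5.02 against 11.5, 16.1 and 11.7). In TAC hearts the groups did not overlap for 7.71% of genes. The 77 genes without overlap in both surgeries had the same direction in 45 cases and opposite directions in 32.

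**Figure D5:**
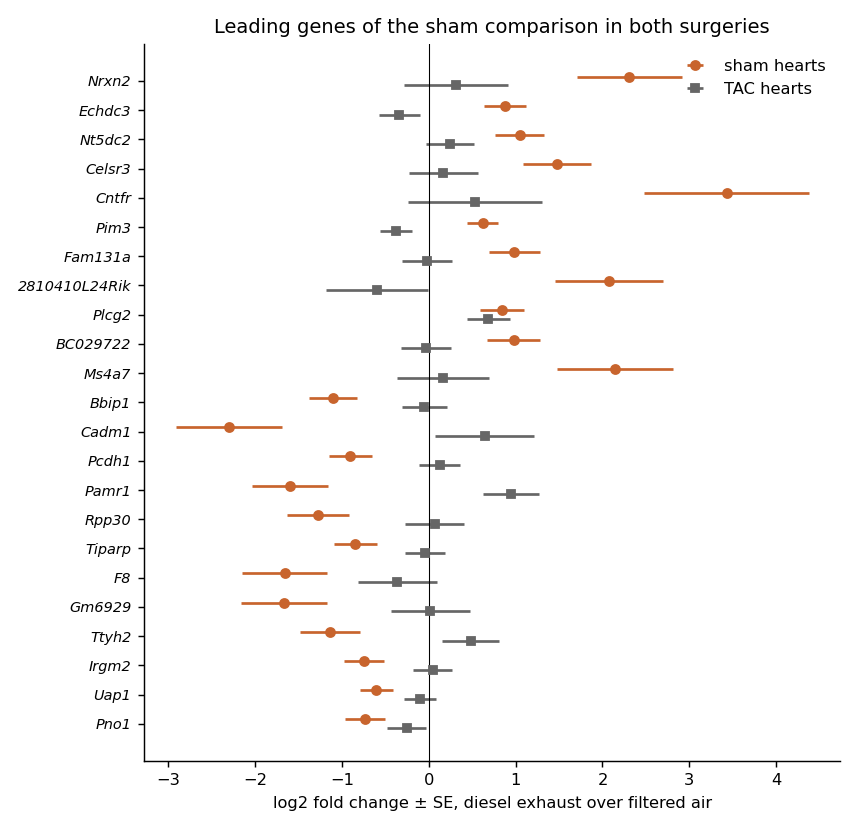
Log2 fold change of diesel exhaust over filtered air, ± SE, of 23 of the 24 leading genes in sham hearts (orange circles) and in TAC hearts (grey squares). Sham values lie away from 0 by the choice of genes; in TAC hearts 11 of these 23 have the same sign, and Plcg2 stands at 0.84 and 0.69 in the 2 surgeries.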

How the data were processed

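Total RNA of frozen hearts was depleted of ribosomal RNA and sequenced on an Ion instrument, per the labels. The authors deposited raw counts per gene number. Per the submitters' processing notes, the tools were cutadapt 1.6, Subread 1.4.2 and featureCounts, on build mm10. The sources used here do not give the strand setting, the treatment of multi-mapping reads or the annotation, so antisense genes, paralogs and genes within hosts may hold each other's reads. Of 27179 gene numbers, 25275 took a symbol from RefSeq GRCm38.p6, 18 from GENCODE M21 and 1886 none.

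Counts were analysed in R 4.3.3 with edgeR 4.0.16: TMM factors, filterByExpr with a count minimum of 10, and a robust quasi-likelihood fit of a mean per group over all 12 libraries (8 residual degrees of freedom). Adjusted p-values are Benjamini-Hochberg values over 13626 genes, threshold 0.05. limma 3.58.1 and DESeq2 1.42.0 were alternatives. A count of 3 stood for 0.318 to 0.501 CPM in sham libraries, covering counting error only. The scripts were tested on simulated data. Leading genes were the 12 higher and 12 lower with the smallest p, at least 1 CPM and no overlap; hallmark genes and the 2 smallest p of each list were added. Members, lists and rules were chosen with earlier results of these data known, and Mir30e, Mir143, Mir208a, C4b and Ptprf after their values were seen. Values of 1 leading gene and 1 further listed gene are not reported here.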

Additional observations from a re-analysis of the deposited data

How the results depend on the processing

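The count of genes past the threshold in sham hearts was 0 under each of the 15 alternatives run, which included 6 fits without 1 sham library. No paired analysis was possible because the labels give no replicate numbers shared between groups. Counts in TAC hearts and for the interaction, alternatives added after the data were seen, were 1 without the filter and 1 with DESeq2, and 0 in every fit without 1 sham library. Scaled by total counts, Atp2a2 was at 0.0682, Hmox1 at 0.000487, Dnmt1 at 0.0356 and Mir208a at 0.0588 (log2), and 3 lists in place of 1 had summed levels without overlap between groups. Leaving out 1 sham library at a time gave ranges that cross 0 for these genes: Nppa -0.63 to 0.17, Nppb -0.15 to 0.33, Myh7 -0.0871 to 0.23, Atp2a2 -0.16 to 0.13, Col1a1 -0.26 to 0.32, Cyp1b1 -0.37 to 0.66, Nqo1 -0.17 to 0.0137, Hmox1 -0.34 to 0.38, Dnmt1 -0.22 to 0.28, Dnmt3a -0.0319 to 0.40, Dnmt3b -0.46 to 0.86, Jph2 -0.0423 to 0.50, Atf3 -2.19 to 0.15, Nkx2-5 -0.0191 to 0.86, Pln -0.43 to 0.00105 and Mir208a -0.65 to 0.28. The cause was not tested. Scarce genes have wide intervals: below 10 CPM many reach beyond 2-fold.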

Other observations

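Small nucleolar RNA genes, which guide the modification of ribosomal RNA, lay below 0 in 71 of 105 cases after diesel exhaust in sham hearts, where 48.9% of all genes did. The median log2 difference was -0.18, but it turned to 0.09 without air library 2 and 0.05 without diesel library 1, and the other fits without 1 library gave -0.47 to -0.08. In all, 2 were lower and 0 higher at an unadjusted p under 0.05. Snora81 was at 1519, 2502 and 2868 CPM after filtered air and 1531, 716 and 1526 after diesel exhaust, and Snord47 at 63.6, 97.6 and 100 CPM against 46, 49.6 and 67.8. Both overlapped at air library 1, and their unadjusted p reached 0.0799 (Snora81, without air library 3) and 0.0584 (Snord47, without diesel library 1). The summed level of the list was 12820, 22620 and 22820 CPM against 14790, 17370 and 18570. Of 75 tested genes of cytosolic ribosomal proteins, 51 lay below 0 with a median of -0.08, and 2 were lower at an unadjusted p under 0.05. Rpl26 was at 59.2, 54.8 and 64.1 CPM against 49.5, 28.2 and 43.1, with no overlap (log2 -0.56, and -0.36 with unadjusted p = 0.0781 without diesel library 2).

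Cell cycle genes had a summed level of 399, 399 and 398 CPM after filtered air and 413, 465 and 432 after diesel exhaust. The groups did not overlap, which with these factors was so for no other list. The exact permutation p of 0.1 (two-sided, unadjusted over the lists) is the smallest that 3 against 3 can give. The median log2 difference of the tested members was 0.14, and 0.00934 without air library 1. Of the 36 tested, E2f1, a transcription factor of the start of DNA synthesis, was the 1 gene with an unadjusted p under 0.05, at 0, 0.587 and 0 CPM against 0.511, 0.836 and 2.02, and at an unadjusted p of 0.155 without diesel library 3.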
